A study of Mus musculus with 54 samples.

Results

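The comparison set kidney tubules of semaglutide-treated diabetic mice against those of nondiabetic mice on vehicle, and asked which parts of the diabetic expression profile remained under the drug. It used all 5 libraries labelled Sglt1 WT/Akita with semaglutide that have a column in the deposited table and all 6 libraries labelled Sglt1 WT with vehicle, that is 11 of 52 libraries. Semaglutide, an agonist of the GLP-1 receptor, was given at 3 nmol per kg of body weight per day by subcutaneous injection for 2 weeks. The treated mice carried the Akita allele of the insulin gene Ins2 (Ins2 Akita/+), in which misfolded insulin damages the beta cell and gives a model of type 1 diabetes, and were wild type for Sglt1. The nondiabetic mice were Ins2+/+ and also wild type for Sglt1. All animals were male DBA mice of 14 weeks, and diabetic and nondiabetic animals were littermates. Each library came from 70 to 80 tubules that were cut out by laser because they bound the lectin LTL and lacked SGLT2, a choice made for the late proximal tubule (the S3 segment). The remaining 41 libraries, among them 6 of Akita wild-type mice on vehicle and 5 of Akita wild-type mice on dapagliflozin (an SGLT2 inhibitor), served for the shared error estimate and for values side by side. Semaglutide was given to Akita mice alone, so this comparison changes diabetes and drug together and the effects of the pair cannot be told apart in it. The labels do not say whether the vehicle was injected, nor do they tie libraries to animals, so the p-values below measure the spread between samples, which may be smaller than the spread between animals.

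The S3 segment is the last straight part of the proximal tubule and takes up the glucose that SGLT2 upstream leaves behind, through the carrier SGLT1. In diabetes more glucose reaches it, and its cells handle sugar by glycolysis, by the polyol pathway, in which glucose is turned to sorbitol and then fructose, and by fructose breakdown through ketohexokinase. The factors ChREBP and MondoA sense sugar phosphates and switch on genes of sugar use, and the factor p53 switches on genes of growth arrest and repair after cell stress. GLP-1 receptor agonists raise insulin release where beta cells are left and lower food intake.

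Values are in TPM, a relative transcript abundance scaled to gene length, and the number of reads behind them is unknown. Markers of the S3 segment stood at the same level in both groups, with a mean log2(TPM + 1) of 8.54 ± 0.365 in semaglutide libraries and 8.52 ± 0.575 in nondiabetic libraries (SD, n = 5 and 6, 2-sided exact permutation p = 0.952). Slc7a13, an amino acid carrier that marks S3, ranged from 547 to 1193 TPM under semaglutide and from 369.8 to 1529 TPM in nondiabetic libraries. Slc5a2, the gene of SGLT2, which the dissection was meant to leave out, was present at 15.4 to 205 TPM under semaglutide and 4.55 to 161 TPM in nondiabetic libraries. Slc5a1, the gene of SGLT1, averaged 63.4 ± 4.25 TPM under semaglutide and 55 ± 18.6 TPM in nondiabetic libraries (SD, n = 5 and 6, 2-sided exact permutation p = 0.407). Ins2 and the receptor gene Glp1r were not analysed here. The number that the labels give each library runs from 88 to 99 in the semaglutide group and from 54 to 84 in the nondiabetic group. The labels do not say what the number stands for, and anything that moves with it cannot be told apart from the groups.

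Of 15424 genes tested, 1 passed at an adjusted p under 0.05 (limma, Benjamini-Hochberg over all genes), which is 0.00648% of them. It was Nrg1, neuregulin 1, an EGF-like growth factor that binds the receptors ErbB3 and ErbB4, and it rose. No gene fell past the threshold. At an unadjusted p under 0.05 limma gave 749 genes, 4.86% of those tested, with 493 higher (3.2%) and 256 lower (1.66%). The median log2 change over all tested genes was 0.04, and 56.2% of genes lay above 0. The 5 semaglutide libraries all exceeded the 6 nondiabetic ones in 43 genes (0.279%) and all lay below them in 11 (0.0713%).

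Nrg1 (ENSMUSG00000062991, chromosome 8, 31814551 to 32884029 on the minus strand, GRCm38) stood at 134, 83.5, 145, 95.3 and 127 TPM in semaglutide replicates 2 to 6. In nondiabetic libraries its lowest, median and highest values were 30.5, 43.7 and 67.1 TPM. All semaglutide libraries lay above all nondiabetic ones, without overlap. The difference was log2 1.31 (SE 0.25, 95% interval 0.82 to 1.81, limma adjusted p = 0.0429), a 2.49-fold rise on the log2(TPM + 1) scale. Akita libraries on vehicle held 65.3 to 118 TPM, with a log2 change of 0.99 against the same nondiabetic libraries (limma adjusted p = 0.0346), and semaglutide minus vehicle in Akita was log2 0.33 (95% interval -0.17 to 0.83, limma unadjusted p = 0.192). The adjusted p lay close to the threshold: the call held in 12 of 24 alternative settings, with log2 values from 1.09 to 1.43, and leaving out nondiabetic replicate 1, 2 or 5 or semaglutide replicate 2, 4 or 6 ended it (limma adjusted p = 0.123, 0.228, 0.146, 0.156, 0.208 and 0.258). Without 3 libraries high in RNA of other cell types, 2 of them nondiabetic vehicle libraries, it ended as well (log2 1.09, limma adjusted p = 0.398). The remaining one was nondiabetic knockout dapagliflozin replicate 3, with a score of 4.06. Nondiabetic knockout vehicle replicate 1 scored slightly higher, at 4.08, and was kept. Mean Nrg1 was 47.5 TPM in nondiabetic wild type on vehicle. In nondiabetic knockout on vehicle, wild type on dapagliflozin and knockout on dapagliflozin it was 61, 71.6 and 93.6 TPM. The matching Akita groups averaged 75.5, 78.2 and 102 TPM. Nrg1 did not pass in the average of Akita minus nondiabetic over those pairs of groups (limma).

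**Figure D1:**
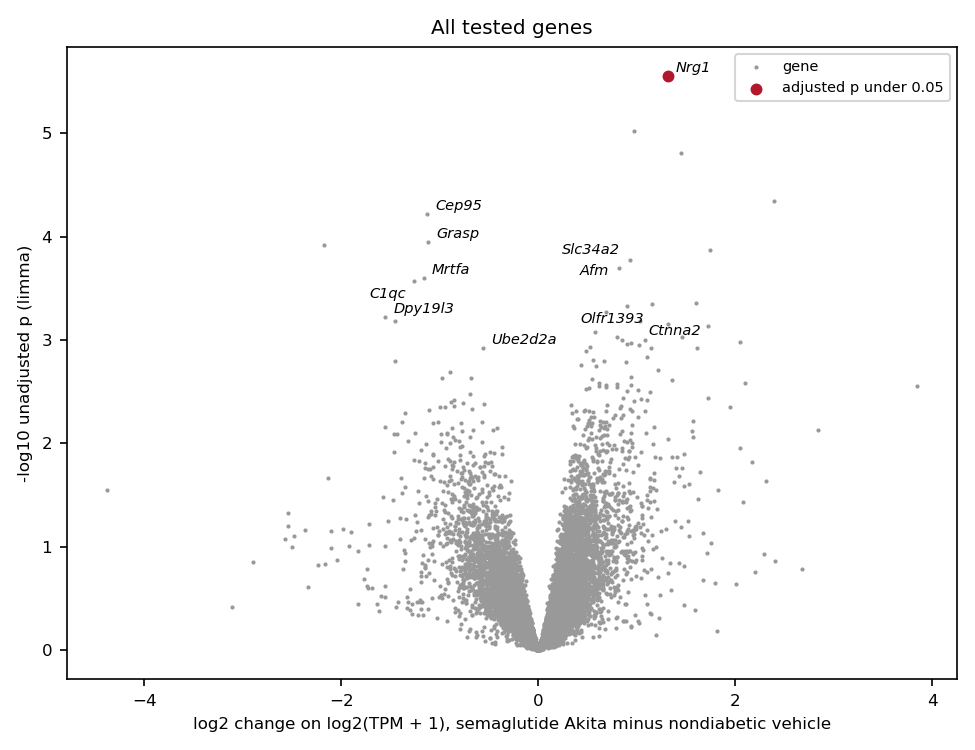
All 15424 tested genes, with the log2 change of semaglutide-treated Akita minus nondiabetic vehicle on the x axis and minus log10 of the unadjusted limma p on the y axis. Nrg1 (log2 1.31) is the 1 gene past the adjusted threshold, and the other labels mark genes with small p in each direction that the text describes.

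Other higher genes with small p did not pass. Slc34a2, a sodium-phosphate cotransporter, had 18.5, 17, 17.7, 24.1 and 20 TPM under semaglutide, against 5.6, 10.7 and 16.3 TPM in nondiabetic libraries. The groups did not overlap (log2 0.93, SE 0.23, limma adjusted p = 0.29). Akita libraries on vehicle held 11 to 29.9 TPM of Slc34a2. Olfr1393, an olfactory receptor gene, was low in both groups, at 2.09 to 3.81 TPM under semaglutide and 0.462 to 1.54 TPM in nondiabetic libraries (log2 1.16, limma adjusted p = 0.479). On vehicle, Akita libraries held 1.28 to 4.06 TPM of it. Afm and Ctnna2, which the naming rule also gives here, are described with the diabetes genes.

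On the lower side, Mrtfa, an actin-regulated coactivator of serum response factor, had 12.7, 27.1, 21.9, 18.4 and 17.1 TPM under semaglutide, against 31.1, 44.7 and 65.2 TPM as lowest, median and highest nondiabetic values. Every semaglutide library lay below every nondiabetic one (log2 -1.17, SE 0.30, limma adjusted p = 0.347). The scaffold gene Grasp did not overlap either, with 0.649 to 1.9 TPM under semaglutide and 2.25 to 6.54 TPM in nondiabetic libraries (log2 -1.12, limma adjusted p = 0.257). Cep95, which encodes a centrosomal protein, had 11 to 21.6 TPM under semaglutide and 14.2 to 64.3 TPM in nondiabetic libraries (log2 -1.13, limma adjusted p = 0.185). Dpy19l3, a mannosyltransferase, and Ube2d2a, a ubiquitin-conjugating enzyme, stood at log2 -1.56 and -0.57 (limma adjusted p = 0.536 and 0.546). None of these 5 passed, though Cep95 did without nondiabetic replicate 3 (log2 -1.35, limma adjusted p = 0.0293). For all 5 the nondiabetic wild-type vehicle group had the highest mean of any group in the series. Mrtfa averaged 45.7 TPM there and 23.8 TPM in Akita wild type on vehicle. In nondiabetic knockout on vehicle, wild type on dapagliflozin and knockout on dapagliflozin it averaged 25.8, 23.6 and 29.2 TPM. In the same order of groups Grasp averaged 4.01, 1.74, 1.79, 2.77 and 1.93 TPM. Cep95 averaged 35, 23.6, 26.5, 23.9 and 20.1 TPM.

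C1qc, a subunit of the complement protein C1q that macrophages make, had 1.36, 1.89, 1.14, 2.96 and 1.5 TPM under semaglutide, against 2.61, 5.78 and 10.3 TPM in nondiabetic libraries (log2 -1.26, SE 0.32, limma adjusted p = 0.347). C1qc was at 1.08 to 3.06 TPM in Akita libraries on vehicle. Nondiabetic wild type on vehicle again had the highest mean of any group in the series, 5.95 TPM. In nondiabetic knockout on vehicle, wild type on dapagliflozin and knockout on dapagliflozin C1qc averaged 4.67, 3.33 and 3.86 TPM. Its partner subunits C1qa and C1qb stood at log2 0.78 and 0.02. Over the 11 tested markers of macrophages and dendritic cells the median was log2 -0.45, with 9 at or below 0 and 2 lower at an unadjusted p under 0.05, where 1.66% of all genes were lower at that p. The summed level of these markers was 366 to 636 TPM under semaglutide and 490 to 823 TPM in nondiabetic libraries, and Tyrobp, a defining adaptor of myeloid cells, was at 0 to 0.832 TPM and 0 to 2.41 TPM. In tissue pieces such as these, fewer cells of a type and less RNA per cell cannot be told apart. Among 11 markers of stroma and smooth muscle 3 were lower at the same p, against the same 1.66% of all genes, namely Acta2 (log2 -1.38), Myh11 (log2 -1.07) and Tagln, genes of the contractile apparatus. The summed level of that list was 122 to 217 TPM under semaglutide and 106 to 691 TPM in nondiabetic libraries, and its part in the lower genes was not tested.

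Diabetes can be read in libraries that this comparison does not use. Akita minus nondiabetic was averaged over Sglt1 knockout on vehicle, Sglt1 knockout on dapagliflozin and Sglt1 wild type on dapagliflozin (17 Akita and 18 nondiabetic libraries, none shared). There 12 genes passed (limma, 0.0778% of 15424), 11 higher (0.0713%) and 1 lower. With any 1 of those 35 libraries left out the count lay between 4 and 13. None of the 12 passed under semaglutide, so the 2 lists shared 0 genes, which is 0% of each. Of the 11 higher genes, 10 lay above 0 in semaglutide-treated Akita mice and 6 had a limma unadjusted p under 0.05, where 56.2% and 3.2% of all genes did. Their median log2 change was 0.54 there and 0.76 in the strata that chose them, against 0.04 over all genes.

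Afm, the vitamin E-binding afamin, had 46.4, 28.8, 59.2, 29.4 and 40.6 TPM in semaglutide replicates 2 to 6, against 16, 21.9 and 33.1 TPM as lowest, median and highest nondiabetic values. All 5 semaglutide libraries exceeded the nondiabetic median, and replicates 3 and 5 lay below the highest nondiabetic library. The log2 change was 0.82 (SE 0.20, limma adjusted p = 0.313), beside 0.66 (SE 0.11) in the other strata. Ctnna2, a catenin that ties cadherins to actin, had 19.6, 9.65, 9.11, 5.74 and 8.84 TPM under semaglutide, against 1.45, 4.9 and 6.36 TPM in nondiabetic libraries. Semaglutide replicate 5 alone fell within the nondiabetic range (log2 1.03, SE 0.28, limma adjusted p = 0.536, and 0.76 in the other strata). Folh1, a brush-border carboxypeptidase that trims folate and glutamate peptides, had 63, 25.8, 34.4, 19.7 and 22.6 TPM under semaglutide, against 9.41, 12.9 and 28.7 TPM in nondiabetic libraries, so that replicates 2 and 4 lay above the nondiabetic range (log2 0.94, SE 0.29, limma adjusted p = 0.755, and 0.74 in the other strata).

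Il7, the lymphocyte growth factor, was low, at 0.401 to 1.37 TPM under semaglutide and 0.121 to 0.612 TPM in nondiabetic libraries (log2 0.54, and 0.67 in the other strata). Ap1s1, an adaptor subunit of vesicle sorting, and the sulfotransferase Sult1c2 had log2 changes of 0.34 and 0.31, beside 0.98 and 0.57 in the other strata. Trmt9b, a tRNA methyltransferase homologue, was the higher gene that did not lie above 0 under semaglutide (log2 -0.07, and 0.81 in the other strata). Laptm5, a lysosomal protein of leukocytes, was the lower gene, with log2 -0.70 (SE 0.34, limma unadjusted p = 0.0452) under semaglutide and -0.88 (SE 0.19) in the other strata.

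A list of 38 genes named earlier for diabetes in these data was followed through the comparison. All 38 were tested and 0 passed under semaglutide (limma, 0.00648% of all genes called). At a limma unadjusted p under 0.05, 12 were higher and 4 lower under semaglutide, where 3.2% and 1.66% of all genes were. In Akita libraries on vehicle, with 1575 genes (10.2%) at an unadjusted p under 0.05 and set against the same 6 nondiabetic libraries, 19 of the 38 rose and 8 fell (limma), where 0.337% of all genes rose and 0.0519% fell, 0.389% in all. The list was chosen in part on that vehicle comparison, so its larger values there are partly the choice, and the shared nondiabetic libraries tie both sets of values. The median log2 change of the list was 0.20 under semaglutide and 0.84 on vehicle, against 0.04 and 0.05 over all genes. Semaglutide minus vehicle in Akita had a median of log2 -0.47 over the list and -0.01 over all genes. The choice on the vehicle libraries enters this difference as well. The list mixes genes that rose and fell on vehicle, so its medians do not measure how much of the diabetic profile remained.

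**Figure D2:**
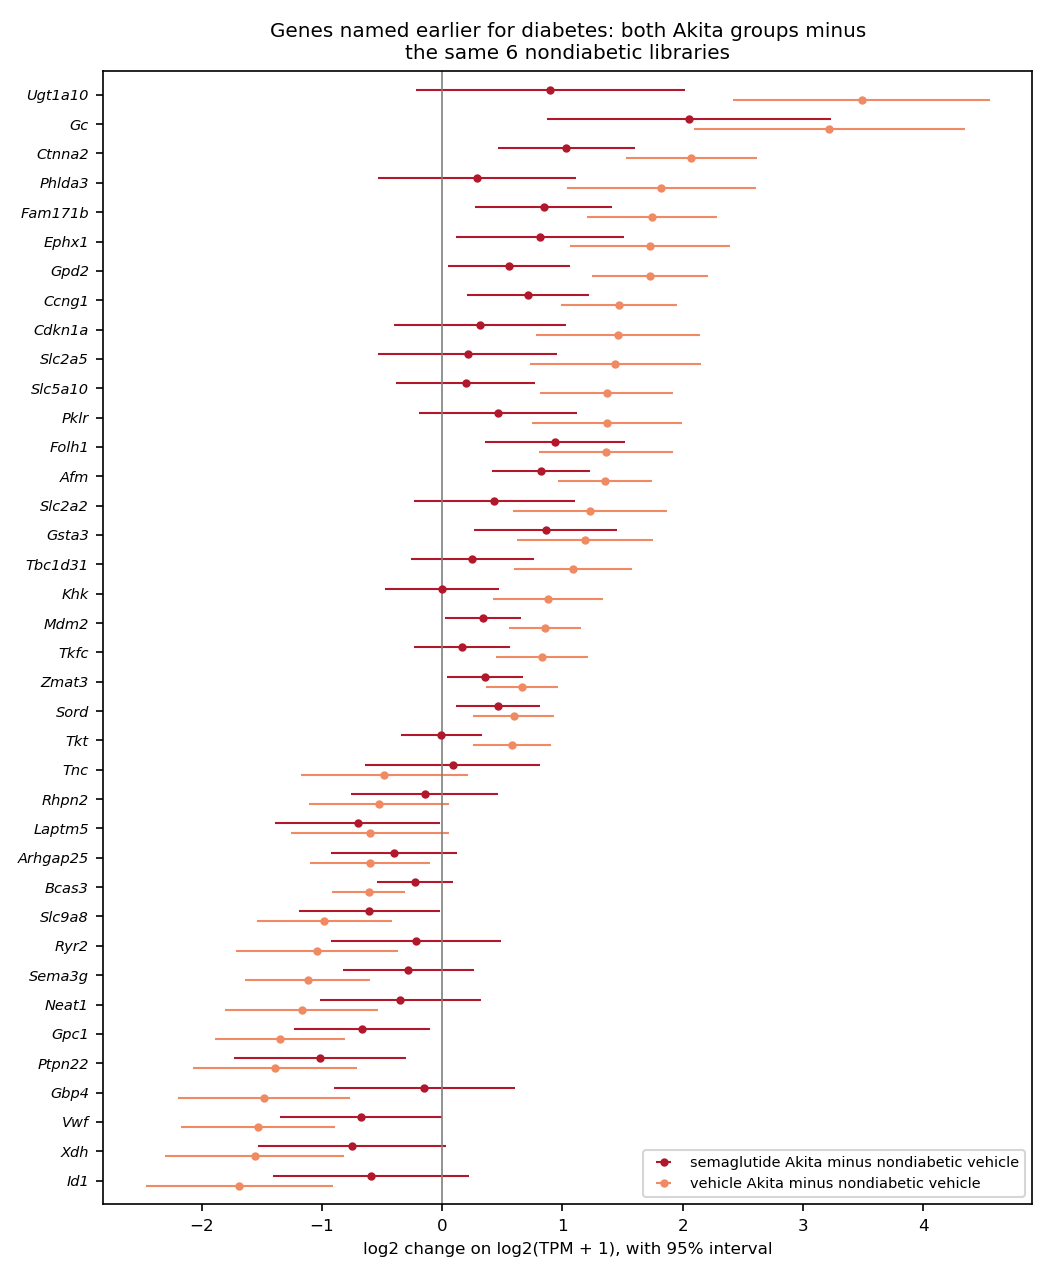
Log2 change on log2(TPM + 1) with 95% intervals for the 38 genes, semaglutide-treated Akita (red) above vehicle-treated Akita (orange) for each gene, both minus the same 6 nondiabetic libraries. Gpd2, Slc5a10 and Phlda3 sit at log2 0.56, 0.19 and 0.29 under semaglutide, and at 1.73, 1.37 and 1.82 on vehicle.

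Gpd2, the mitochondrial glycerol-3-phosphate dehydrogenase that passes electrons from cytosolic NADH to the respiratory chain, had 110.0, 55.2, 69.7, 34.4 and 39.8 TPM under semaglutide. The lowest, median and highest values were 98.2, 135 and 165 TPM in Akita libraries on vehicle and 20.9, 42.2 and 53 TPM in nondiabetic libraries. Semaglutide replicates 5 and 6 lay inside the nondiabetic range, and replicate 2 inside the vehicle range. Against nondiabetic libraries the change was log2 0.56 under semaglutide (SE 0.25, limma adjusted p = 0.99) and 1.73 on vehicle (SE 0.24, limma adjusted p = 2e-05). Semaglutide minus vehicle in Akita was log2 -1.17 (SE 0.25, 95% interval -1.68 to -0.66, limma unadjusted p = 2.82e-05, adjusted p = 0.109).

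The carriers of fructose and mannose differed from each other in where the semaglutide libraries lay. Slc5a10, a sodium-coupled carrier of mannose and fructose, had 881, 322, 816, 334 and 277 TPM under semaglutide, against 849 to 1254 TPM in Akita libraries on vehicle and 231 to 788 TPM in nondiabetic libraries. Semaglutide replicates 3, 5 and 6 lay within the nondiabetic range, replicate 2 within the vehicle range and replicate 4 between them. The log2 change was 0.19 (95% interval -0.39 to 0.78) under semaglutide and 1.37 on vehicle. Slc2a5, the fructose carrier GLUT5, had 391, 147, 335, 155 and 189 TPM under semaglutide, 399 to 681 TPM on vehicle and 88.8 to 486 TPM in nondiabetic libraries. All semaglutide libraries lay below all vehicle libraries and inside the nondiabetic range (log2 0.21 under semaglutide, 1.44 on vehicle). Slc2a2, the basolateral glucose carrier GLUT2, had 6.92 to 46.1 TPM under semaglutide, 26.3 to 38 TPM on vehicle and 4.91 to 35.3 TPM in nondiabetic libraries, with replicate 2 the highest of all.

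Polyol and fructose metabolism was covered by 11 tested genes. Of these 0 passed under semaglutide (median log2 0.16), where 0.00648% of all genes did, while 3 rose on vehicle (median 0.59), where 0.337% of all genes did. Khk, the fructokinase, had 407, 262, 565, 266 and 243 TPM under semaglutide, 449 to 817 TPM on vehicle and 196 to 535 TPM in nondiabetic libraries. Its log2 change was 0.00 (95% interval -0.48 to 0.48) under semaglutide and 0.88 on vehicle. Tkfc, the triokinase that follows it, stood at log2 0.16 and 0.83. Tkt, the transketolase of the pentose phosphate path, stood at -0.01 and 0.58. Sord, sorbitol dehydrogenase, differed from this order: it had 481, 354, 588, 442 and 432 TPM under semaglutide, 444 to 558 TPM on vehicle and 191 to 444 TPM in nondiabetic libraries. Its log2 change was 0.47 (SE 0.17, limma adjusted p = 0.881) under semaglutide and 0.59 on vehicle, and semaglutide minus vehicle was -0.13.

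Pklr, the liver and kidney pyruvate kinase and a ChREBP target, had 83.2, 41.7, 90.9, 41.4 and 60.6 TPM under semaglutide. Akita libraries on vehicle held 69.2 to 162 TPM and nondiabetic libraries 13.1, 45.4 and 122 TPM as lowest, median and highest value. All semaglutide libraries lay inside the nondiabetic range, whose top is a single library (log2 0.46, SE 0.33, limma adjusted p = 0.993, against 1.37 on vehicle and 1.01 in the strata that share no library). Its promoter is shown because it holds the kind of site through which ChREBP acts on sugar-responsive genes. The window runs from 250 bases before to 50 after the start in RefSeq (GRCm38.p6, chr3:89136373-89136672, plus strand), with a match to the carbohydrate response element, searched on both strands, in capitals.
Pklr: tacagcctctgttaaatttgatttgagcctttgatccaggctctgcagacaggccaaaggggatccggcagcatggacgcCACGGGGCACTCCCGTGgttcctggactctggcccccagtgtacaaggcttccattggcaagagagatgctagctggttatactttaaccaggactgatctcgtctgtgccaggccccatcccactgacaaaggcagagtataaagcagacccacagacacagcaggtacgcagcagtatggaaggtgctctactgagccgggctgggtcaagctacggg

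The match begins 170 bases before the start, in 1 of the 2 Pklr windows, and 0.119% of 32851 promoter windows of this length hold one. The windows of Khk, Txnip and Arrdc4, other sugar-responsive genes, held none. Over the 12 tested genes of ChREBP, MondoA and their targets 0 passed under semaglutide, with a median of log2 0.14, while 2 rose on vehicle, with a median of 0.47, where 0.337% of all genes rose. The arrestin-like Txnip and Arrdc4 stood at log2 -0.09 and 0.20 under semaglutide, and Mlxipl, which encodes ChREBP, at 0.18.

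**Figure D3:**
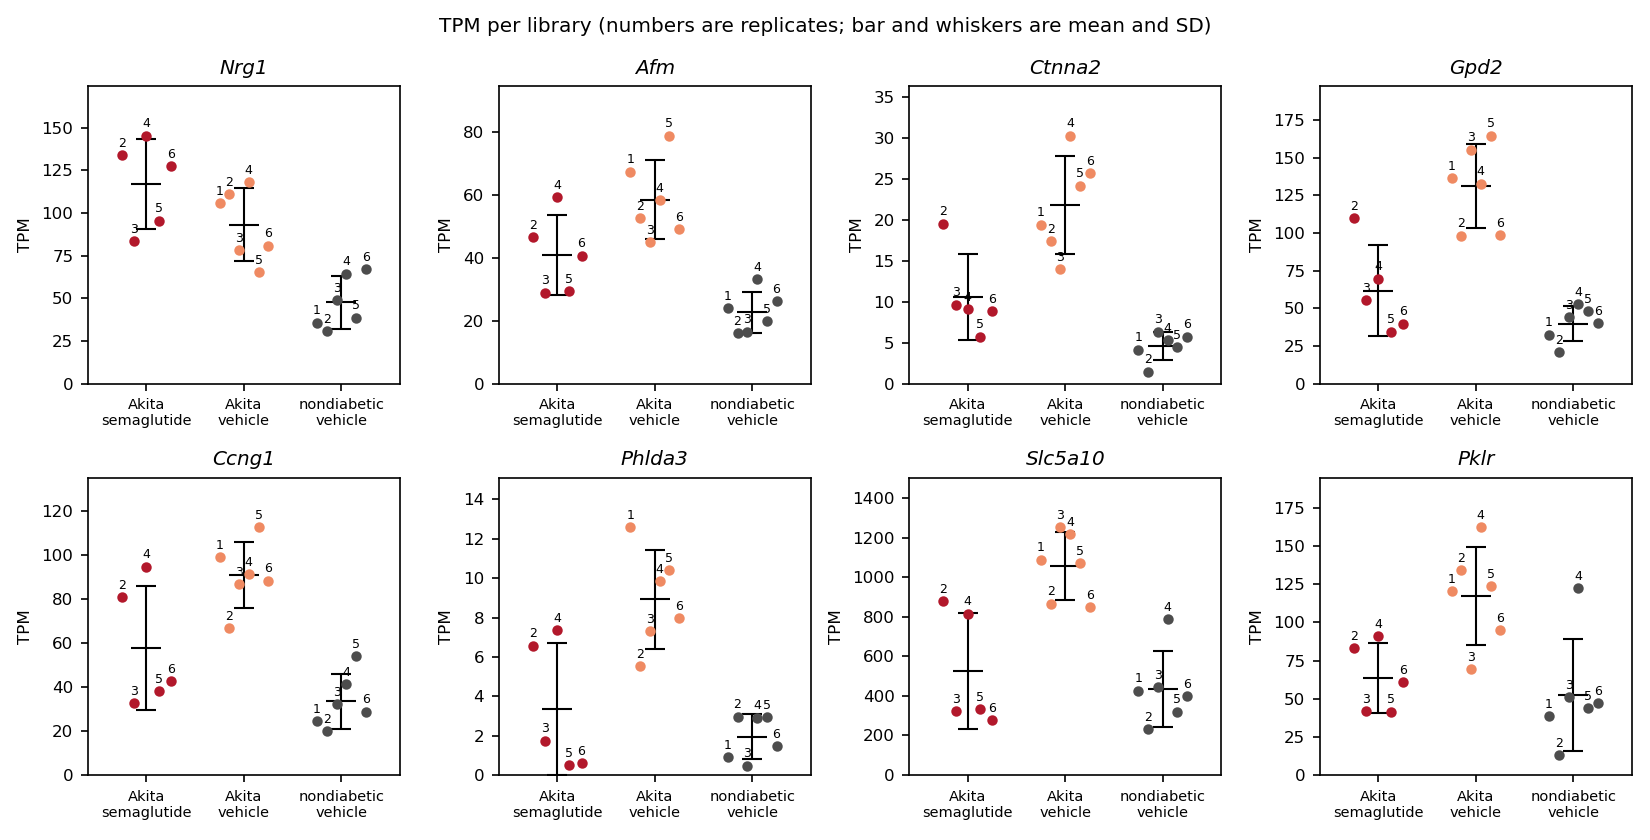
TPM of 8 genes in each library of semaglutide-treated Akita, vehicle-treated Akita and nondiabetic vehicle mice, from left to right, with the replicate number beside each point and mean and SD as bars. Nrg1 holds 83.5 TPM or more in every semaglutide library, and replicates 2 and 4 are the highest semaglutide libraries for Gpd2, Ccng1, Phlda3, Slc5a10 and Pklr.

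Among targets of p53, Ccng1, the p53-induced cyclin G1, had 80.9, 32.6, 94.8, 38.2 and 42.7 TPM under semaglutide, 67 to 113 TPM on vehicle and 20 to 54.2 TPM in nondiabetic libraries. Replicates 2 and 4 lay in the vehicle range and replicates 3, 5 and 6 in the nondiabetic range (log2 0.71, SE 0.25, limma adjusted p = 0.836, against 1.47 on vehicle). Phlda3, a p53-induced repressor of Akt signalling, had 6.58, 1.75, 7.35, 0.488 and 0.603 TPM under semaglutide, 5.53 to 12.6 TPM on vehicle and 0.475 to 2.96 TPM in nondiabetic libraries. The same replicates 2 and 4 lay in the vehicle range (log2 0.29 under semaglutide, 1.82 on vehicle). Mdm2, the ubiquitin ligase that degrades p53, had 66, 57.6, 72, 67.2 and 43.7 TPM under semaglutide, 72.9 to 108 TPM on vehicle and 43.5 to 53.1 TPM in nondiabetic libraries. Of its 5 semaglutide libraries, 4 lay between the ranges of the other groups (log2 0.34, SE 0.16, limma unadjusted p = 0.0353).

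Cdkn1a, the cell cycle inhibitor p21, had 0.348 to 2.18 TPM under semaglutide, 1.8 to 9.71 TPM on vehicle and 0.188 to 2.05 TPM in nondiabetic libraries, with log2 changes of 0.31 and 1.46. Tnfrsf10b, a death receptor, lay at 0.296 to 1.52 TPM under semaglutide, below all vehicle libraries (1.62 to 4.99 TPM), and at 0.58 to 2 TPM in nondiabetic libraries. Zmat3, which encodes an RNA-binding target of p53, stood at log2 0.36 and 0.67. Over the 18 tested p53 targets 0 passed under semaglutide and 3 were higher at an unadjusted p under 0.05 (median log2 0.21), while 6 rose on vehicle (median 0.73). Over all genes those shares were 3.2% and 0.337%. The promoters of Ccng1 (chr11:40755237-40755536, minus strand) and Mdm2 (chr10:117710709-117711008, minus strand) are shown as examples of p53 targets with a p53 half-site in the same RefSeq window, with the half-site in capitals.
Ccng1: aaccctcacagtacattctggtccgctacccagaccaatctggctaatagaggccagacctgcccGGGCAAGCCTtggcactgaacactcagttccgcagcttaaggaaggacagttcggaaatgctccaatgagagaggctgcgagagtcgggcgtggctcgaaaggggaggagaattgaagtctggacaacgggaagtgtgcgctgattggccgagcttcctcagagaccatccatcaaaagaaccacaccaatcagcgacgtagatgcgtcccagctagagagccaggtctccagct
Mdm2: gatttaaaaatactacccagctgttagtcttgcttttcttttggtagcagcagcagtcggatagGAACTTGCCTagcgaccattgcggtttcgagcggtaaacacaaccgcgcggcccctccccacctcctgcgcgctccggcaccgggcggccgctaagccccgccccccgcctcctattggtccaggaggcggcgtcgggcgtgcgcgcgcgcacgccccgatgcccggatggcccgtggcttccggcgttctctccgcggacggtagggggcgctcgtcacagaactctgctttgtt

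The half-sites begin 185 and 186 bases before the start. A half-site is a short motif, and 8.36% of all windows hold one on either strand. In the same search 1 of 2 Cdkn1a windows held one and the Phlda3 window held none.

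Some carrier and detoxification genes had higher means under semaglutide than in nondiabetic libraries, none past the threshold. Gc, the vitamin D-binding protein, had 30.3, 2.35, 3.99, 6.34 and 10.7 TPM under semaglutide, 4.63 to 69.6 TPM on vehicle and 0.202 to 3.23 TPM in nondiabetic libraries. Replicate 3 alone lay within the nondiabetic range (log2 2.05, SE 0.59, limma adjusted p = 0.546, against 3.22 on vehicle). Gsta3, a glutathione transferase, had 19.3 to 28 TPM under semaglutide, 21.4 to 38.8 TPM on vehicle and 5.55 to 21.3 TPM in nondiabetic libraries (log2 0.86 and 1.19). The microsomal epoxide hydrolase Ephx1 and the membrane protein gene Fam171b stood at log2 0.81 and 0.84 under semaglutide and at 1.73 and 1.74 on vehicle. Ephx1 had 80.8, 15.7, 38.8, 12 and 38 TPM under semaglutide and 9.42 to 33 TPM in nondiabetic libraries. Fam171b had 2.07, 0.394, 2.39, 0.324 and 0.973 TPM under semaglutide and 0 to 0.537 TPM in nondiabetic libraries. For both genes replicates 3 and 5 lay in the nondiabetic range and replicates 2 and 4 were the highest. Ugt1a10, a glucuronosyltransferase, stood at 0, the value given here to blank cells, in 2 semaglutide libraries and 5 nondiabetic ones. It reached 8.63 TPM in semaglutide replicate 2, against 4.86 to 46.8 TPM on vehicle. Reads of the exons common to the Ugt1a genes can be assigned to any of them, which makes this level uncertain.

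Of the diabetes genes with lower levels on vehicle none passed under semaglutide (limma), and Laptm5 stood at log2 -0.70 under semaglutide and -0.60 on vehicle. Gbp4, an interferon-induced GTPase, had 10.2, 10.1, 9.03, 9.54 and 15.4 TPM under semaglutide, 2.83 to 4.83 TPM on vehicle and 5.02 to 41.5 TPM in nondiabetic libraries. All semaglutide libraries lay above all vehicle libraries and inside the nondiabetic range (log2 -0.15 under semaglutide, -1.48 on vehicle). Gpc1, a heparan sulfate proteoglycan, stood at log2 -0.67 and -1.35, Vwf, the von Willebrand factor of endothelium, at -0.67 and -1.53, and Xdh, xanthine oxidoreductase, at -0.75 and -1.56. These genes had their highest mean of any group in the series in nondiabetic wild type on vehicle. Vwf averaged 5.1 TPM there and 1 TPM in Akita wild type on vehicle. In nondiabetic knockout on vehicle, wild type on dapagliflozin and knockout on dapagliflozin it averaged 1.25, 1.15 and 2.88 TPM. Ptpn22, a leukocyte phosphatase, had 0.44 to 3.74 TPM under semaglutide and 2.8 to 5.88 TPM in nondiabetic libraries (log2 -1.02, limma adjusted p = 0.836, and -1.39 on vehicle). The sodium-proton exchanger Slc9a8 stood at -0.61 and -0.98. The 12 tested endothelial markers had a median of log2 -0.07, with 0 past an unadjusted p of 0.05.

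Within the semaglutide group, replicates 2 and 4 were singled out with these data known, and other pairs were not counted. That choice may enter the counts given here. Replicates 2 and 4 lay above the other 3 libraries in 18 of the 38 diabetes genes and below them in 4, where 11.9% and 12.9% of all genes did. Nrg1 was also highest in them, at 134 and 145 TPM against 83.5, 95.3 and 127 TPM, and without semaglutide replicate 2 and nondiabetic replicate 1, each the highest of its group in markers of the S1 and S2 segments, its call ended (log2 1.19, limma adjusted p = 0.342). With the score of those markers as a covariate over all libraries Nrg1 stood at log2 1.33 (limma adjusted p = 0.0407). Replicates 2 and 4 also led in 6 of 18 p53 targets, 6 of 11 polyol and fructose genes, 14 of 18 ribosomal protein genes and 9 of 13 mitochondrially encoded mRNAs. The same libraries were the highest in 11 of 12 markers of the S1 and S2 segments, whose mean log2(TPM + 1) was 6.79 in replicate 2 and 5.82 in replicate 4, against 4.36 to 4.71 in the others. Mitochondrial ribosomal RNA made up 43.3 and 52.3% of their TPM, against 36.8, 20.3 and 28.5% in replicates 3, 5 and 6. The part of these measures in the levels of the diabetes genes was not tested.

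**Figure D4:**
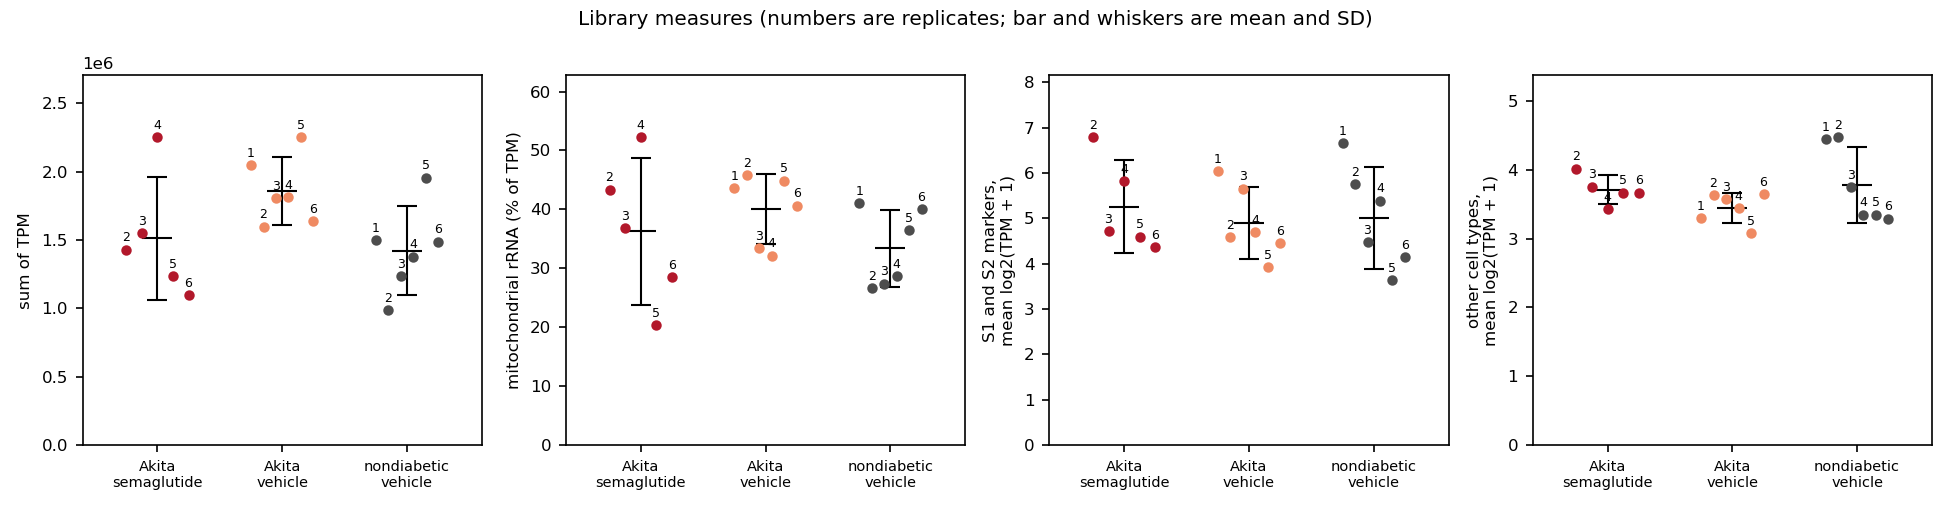
Sum of TPM, percent of TPM in mitochondrial rRNA, and mean log2(TPM + 1) of S1 and S2 markers and of markers of other cell types, per library, with semaglutide-treated Akita, vehicle-treated Akita and nondiabetic vehicle mice from left to right (points with replicate numbers, bars for mean and SD). Semaglutide replicates 2 and 4 hold the highest S1 and S2 scores of their group, 6.79 and 5.82.

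The semaglutide and nondiabetic groups were not told apart by these measures. Mitochondrial rRNA was 36.3 ± 12.5% under semaglutide and 33.4 ± 6.57% in nondiabetic libraries (SD, n = 5 and 6, 2-sided exact permutation p = 0.632). The score of other cell types was 3.71 ± 0.21 under semaglutide and 3.78 ± 0.555 in nondiabetic libraries (2-sided exact permutation p = 0.788), and that of S1 and S2 markers 5.26 ± 1.03 and 5.01 ± 1.12 (2-sided exact permutation p = 0.688). The sum of TPM over all genes was 1513150 ± 449384 under semaglutide and 1422240 ± 323329 in nondiabetic libraries (2-sided exact permutation p = 0.688). Akita libraries on vehicle, which these tests left out, had a sum of 1857900 ± 250664 TPM and 40.1 ± 5.91% mitochondrial rRNA (SD, n = 6). The main fit did not rescale for the sum. With 462 ways to split the 11 libraries, the smallest p is 0.004329.

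The test of semaglutide against vehicle within Akita shares the semaglutide libraries with the values above. Library numbers did not overlap here either (88 to 99 under semaglutide, 1 to 82 on vehicle), so anything that moves with the number cannot be told apart from the drug. The test called 0 genes (limma), with 800 of 15424 at an unadjusted p under 0.05 (5.19%) and a smallest adjusted p of 0.109. Tbc1d14, a regulator of autophagy, had 50.3, 55.6, 52, 51.4 and 39.9 TPM under semaglutide, 68.5 to 119 TPM on vehicle and 42.4 to 67.6 TPM in nondiabetic libraries. Semaglutide and vehicle did not overlap (log2 -0.80, SE 0.17, limma adjusted p = 0.109), and against nondiabetic libraries the change was -0.01 (95% interval -0.35 to 0.34). Ugt1a10 had log2 -2.59 (limma adjusted p = 0.109). On the higher side, Gbp4 and Pcgf3, a Polycomb ring finger gene, had log2 1.33 and 0.71 (limma adjusted p = 0.433 and 0.409). Without semaglutide replicate 2 limma called 3 genes lower, Gpd2, Ugt1a10 and the predicted gene Gm45011 (log2 -1.40, -3.11 and -2.54, adjusted p = 0.00661 for each), and without Akita vehicle replicate 2 it called 1, the small nucleolar RNA gene Snord1c (log2 -5.48, adjusted p = 0.00317).

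Against dapagliflozin in Akita, semaglutide called 0 genes (limma), with 543 at an unadjusted p under 0.05 (3.52%) and a smallest adjusted p of 0.764. Ache, acetylcholinesterase, and Gpc3, a glypican, led the higher side (log2 1.31 and 1.30), and Tnfrsf10b and Tmem11, a mitochondrial membrane protein gene, the lower side (log2 -0.98 and -0.77). Without semaglutide replicate 2 limma called 1 gene, Gm45011, which was lower (log2 -2.50, adjusted p = 0.0447). Gpd2 stood at log2 -0.80 (95% interval -1.33 to -0.27, limma unadjusted p = 0.00391) and Nrg1 at 0.57 (95% interval 0.05 to 1.09, limma unadjusted p = 0.0323).

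**Figure D5:**
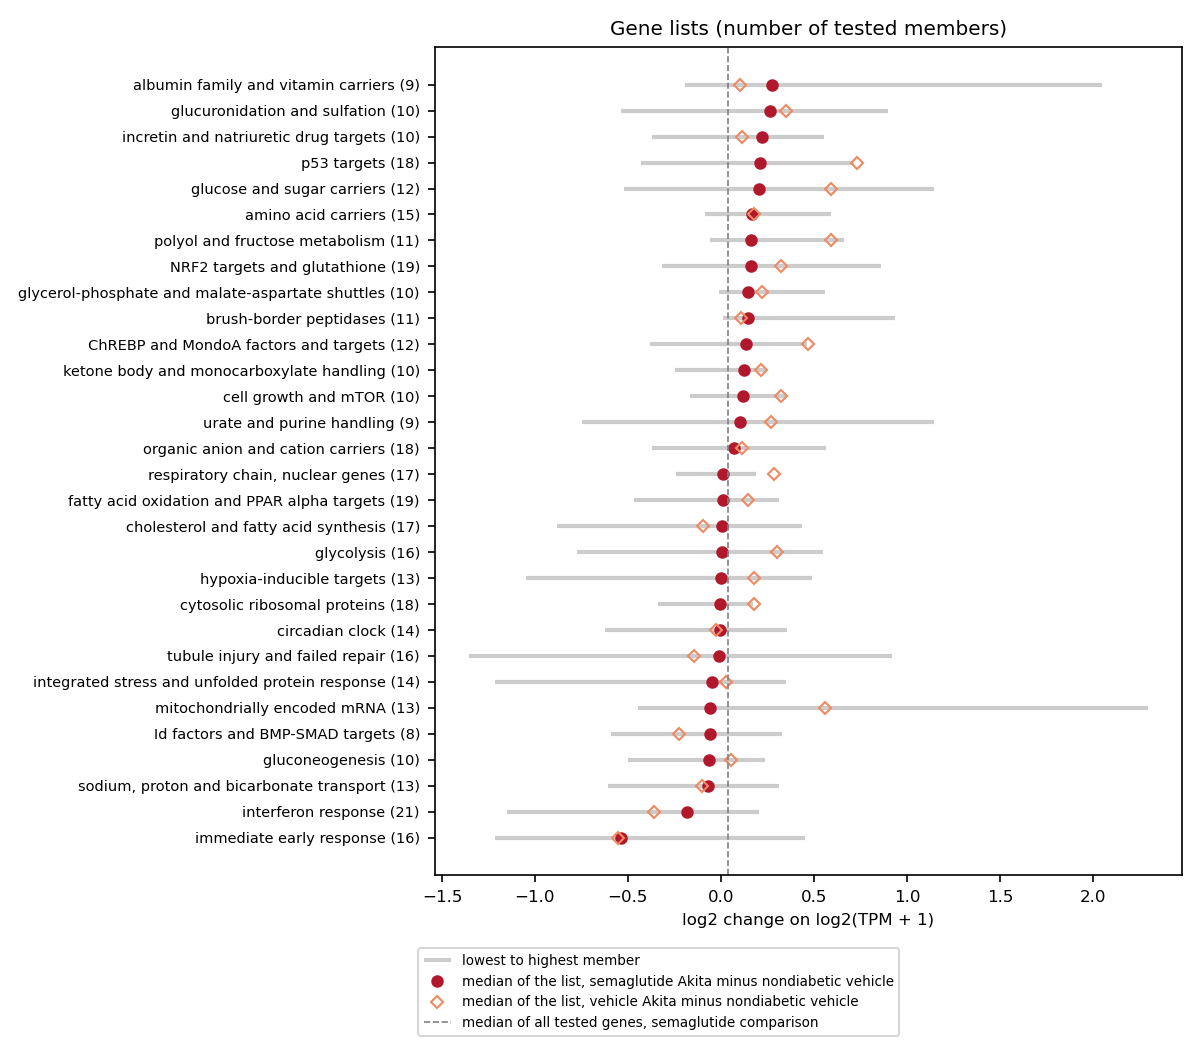
Median log2 change on log2(TPM + 1) of 30 gene lists, for semaglutide-treated Akita (filled circles) and vehicle-treated Akita (open diamonds), both minus the same nondiabetic libraries, with grey bars from the lowest to the highest member under semaglutide. The dashed line is the median of all genes under semaglutide, 0.04, and the list medians under semaglutide lie between -0.18 and 0.28, except that of the immediate early genes at -0.54.

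No member of the 30 pathway lists passed under semaglutide. Immediate early genes had the lowest median, log2 -0.54 over 16 tested members, with 4 lower at an unadjusted p under 0.05, where 1.66% of all genes were, and a median of -0.55 on vehicle. Both medians rest on the same nondiabetic libraries. In the strata that share no library with this comparison the list had a median of -0.08, against 0.02 over all genes. Jun and Atf3, stress-induced factors, stood at log2 -0.89 and -1.21, and Dusp1 and Zfp36, brakes of stress signalling, at -0.93 and -0.63 under semaglutide, all 4 named after their values were seen. The 13 mitochondrially encoded mRNAs had a median of -0.06 under semaglutide and 0.56 on vehicle, and the 17 nuclear respiratory chain genes 0.01 and 0.29. Fatty acid oxidation (19 genes), glycolysis (16) and gluconeogenesis (10) had medians of 0.01, 0.00 and -0.06. Among 16 genes of tubule injury and failed repair the median was -0.01, with Havcr1, the injury marker KIM-1, at 3.26 to 16 TPM under semaglutide and 0.484 to 16.4 TPM in nondiabetic libraries.

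Several further members, chosen after their values were seen, had higher means under semaglutide than in nondiabetic libraries with no call, and all but Trf overlapped them. Trf, the iron carrier transferrin, had 14.6 to 34.6 TPM under semaglutide and 6.14 to 12.6 TPM in nondiabetic libraries, without overlap (log2 1.08, limma adjusted p = 0.546). Its level in Akita libraries on vehicle was 12.5 to 30.5 TPM. Dab2, an endocytic adaptor of megalin, had 186 to 267 TPM under semaglutide and 121 to 198 TPM in nondiabetic libraries (log2 0.56, SE 0.17, limma adjusted p = 0.627, and 0.34 on vehicle). Slc2a9, the urate and fructose carrier GLUT9, had 5.11 to 20.1 TPM under semaglutide and 2.81 to 10.3 TPM in nondiabetic libraries (log2 1.15, and 0.55 on vehicle). Trf, Dab2 and Slc2a9 had their lowest mean of any group in nondiabetic wild type on vehicle (10.7, 154 and 5.08 TPM). In nondiabetic knockout on vehicle, wild type on dapagliflozin and knockout on dapagliflozin Dab2 averaged 189, 198 and 177 TPM. Slc2a9 averaged 6.51, 9.75 and 7.59 TPM in them, and Trf 14.2, 11.3 and 12.2 TPM. Gckr, the regulator of glucokinase, had 5.17, 3.74, 3.99, 0.692 and 7.38 TPM under semaglutide, 0.159 to 1.67 TPM on vehicle and 0.0708 to 1.69 TPM in nondiabetic libraries. It was higher than both in 4 of 5 semaglutide libraries (log2 1.46 against nondiabetic and 1.40 against vehicle, limma adjusted p = 0.546 and 0.493).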

How the data were processed

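The deposited table holds log10 TPM for 19068 genes in 52 columns, 1 per library, and its title says that outliers were removed. The submitters' processing notes name the build GRCm38, and gene names and positions were taken from GENCODE vM21 on that build, which may not be the annotation the authors counted with. No source used here gives the aligner or the read depth, so the precision of single values is unknown. Semaglutide replicate 1 and Akita dapagliflozin replicate 2 were not analysed here. Blank cells (7.02%) were taken as 0 and log10 values were turned back to TPM, whose sums ran from 984393 to 2253870 per library. The 15424 genes averaging 1 TPM or more over all libraries were tested on log2(TPM + 1) with limma 3.58.1 in R 4.3.3: 9 group means, empirical Bayes with trend and robust settings, Benjamini-Hochberg adjustment, threshold 0.05. Library measures were compared by exact permutation (scipy 1.17.1). The code was tested on simulated data.

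Genes were named by rule: those past the threshold with a log2 change of at least 0.5, the 6 smallest p in a direction with few calls, members of the diabetes list, genes called in the strata that share no library, the leading genes of the drug comparisons, and the carriers Slc5a1 and Slc5a2. A few genes that the rule or the lists give are not reported here. The members and gene lists were chosen with earlier results of these data known. The labels do not say that libraries came from separate animals, so their spread may be technical. Alternatives changed the pseudocount, filter, scaling, weights, covariates, libraries and groups in the fit. RNA came from laser-captured tubules (0.5 ng, DV200 over 30%), made into libraries with a SMARTer stranded total RNA kit, per the labels' protocols.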

Additional observations from a re-analysis of the deposited data

Results flagged for a closer look

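In 130 groups of values checked, 4 held a library far from the rest of its group, where about 1 in 20 would by chance. On log2(TPM + 1), the gap to the nearest library, divided by the range of the group, was 0.776 for Gbp4 in semaglutide replicate 6 (15.4 TPM, nearest 10.2 TPM). It was 0.727 for Bcas3 in nondiabetic replicate 1 (71.4 TPM, nearest 59.6 TPM) and 0.675 for Ctnna2 in nondiabetic replicate 2 (1.45 TPM, nearest 4.15 TPM). For Ugt1a10 it was 1 in nondiabetic replicate 4 (2.42 TPM), the other 5 nondiabetic libraries being at 0, the value given here to blank cells.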

How the results depend on the processing

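The count of 1 called gene between semaglutide-treated Akita and nondiabetic libraries became 3 with a pseudocount of 0.1, 2 with percent mitochondrial rRNA or the sum of TPM as covariate, and 0 with no filter, array weights, the library number as covariate or a fit of both groups alone; with 1 library left out it ran from 0 to 2. Nrg1 lost its call in 12 of 24 alternatives and had the same sign in all of them. Where the 3 libraries high in other cell types, or the 2 highest in S1 and S2 markers of their groups (chosen after seeing the data), were left out, the 1 gene called was the predicted gene Gm6999. The vehicle comparison's 60 calls became 31 with the sum of TPM as covariate, 143 with the library number and 34 in the fit of both groups alone, and ran from 39 (without Akita vehicle replicate 4) to 148 (without nondiabetic replicate 5). Semaglutide against vehicle called 0 genes, but 12 with array weights, 2 with the library number, 2 without the 3 libraries and 3 without the 2 libraries, with 0 to 3 on leaving out 1 library. Against dapagliflozin the count of 0 became 1 without the 2 libraries, and 0 to 1 on leaving out 1. The 12 calls in the strata that share no library became 3 with a pseudocount of 0.1, 6 with no filter, 4 at a mean of at least 5 TPM, 5 with median-ratio scaling, 4 with the other-cell score, 4 with mitochondrial rRNA and 6 without the 3 libraries, and ran from 4 to 13 on leaving out 1. Their overlap with the semaglutide list was 0 to 1 genes. The cause of these shifts was not tested. Of 60 named genes, 46 had the same sign in every alternative, and the other 14 had main log2 sizes of at most 0.36. No paired analysis was possible because the library numbers in the labels are all different, and no label says that a replicate number marks a shared animal, litter or day. The number of reads behind each value is unknown, so limits set by depth could not be given.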
